A study of Arabidopsis thaliana with 12 samples.

Results

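The D-type cyclins of Arabidopsis thaliana were followed in root tips of wild type and of a mutant that lacks most of its AGO10 transcript, with and without a short pulse of cytokinin. The members were taken by gene identifier, and they are the 10 CYCD genes among the 32833 genes in the table. They are AT1G70210 (CYCD1;1), AT2G22490 (CYCD2;1), AT4G34160 (CYCD3;1), AT5G67260 (CYCD3;2), AT3G50070 (CYCD3;3), AT5G65420 (CYCD4;1), AT5G10440 (CYCD4;2), AT4G37630 (CYCD5;1), AT4G03270 (CYCD6;1) and AT5G02110 (CYCD7;1), and the text mostly uses the identifiers of the table while the figures carry the symbols. Of the 10, 9 averaged 10 or more normalized counts across the 12 libraries and were tested, and AT5G02110 had no read in any library.

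RNA sequencing was done on whole root tips of seedlings 6 days after germination. There were 4 groups of 3 libraries: Col-0 mock, Col-0 BAP, ago10-1 mock and ago10-1 BAP. Col-0 is the wild type, ago10-1 is a mutant allele of ARGONAUTE10, and BAP is the cytokinin 6-benzylaminopurine, sprayed at 1 µM for 2 h. Mock is the label of the plants that got no BAP, which the study's methods call untreated, and all plants grew on plates with sucrose. If the mock plants were not sprayed, BAP and the spraying cannot be told apart in any comparison of BAP with mock. The tips were cut 1 to 3 mm above the end of the root per the methods, and the sample labels give 1 mm. A normalized count is a read count per gene divided by the size factor of its library.

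D-type cyclins are the regulatory subunits that hormones and sugar act on to let a plant cell leave G1. With the kinase CDKA;1 they phosphorylate RBR1, the retinoblastoma-related protein, which then releases E2F factors and lets S phase genes be transcribed, while the KRP and the SIM and SMR proteins inhibit the kinase complexes. AT4G34160 is a textbook cytokinin-induced gene of cultured cells and seedlings, the CYCD3 genes act in vascular cambium and leaves, and AT4G03270 is known for the formative division of the daughter cells of the cortex and endodermis initial, downstream of SHR and SCR.

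The site through which these cyclins dock on RBR1 is shown because it divides the family. It reads leucine, any residue, cysteine, any residue, glutamate (LxCxE), and was searched for in the reading frame of the longest RefSeq coding sequence of each gene. The motif was found in 7 of the 10 members, in all 7 within the first 30 codons and in the first coding exon. Over all 27361 nuclear coding sequences read in the same way, 0.208% held it in the first 30 codons and 3.80% held it anywhere. The coding bases around it follow, 5′ to 3′ on the coding strand of TAIR10.1, with the 15 bases of the motif in capitals.
AT1G70210: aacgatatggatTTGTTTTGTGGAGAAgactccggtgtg
AT2G22490: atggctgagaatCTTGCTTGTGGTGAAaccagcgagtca
AT4G34160: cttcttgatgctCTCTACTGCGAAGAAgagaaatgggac
AT5G67260: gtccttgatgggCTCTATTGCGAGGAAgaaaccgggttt
AT3G50070: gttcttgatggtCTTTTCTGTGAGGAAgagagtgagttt
AT5G65420: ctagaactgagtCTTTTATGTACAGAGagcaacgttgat
AT5G02110: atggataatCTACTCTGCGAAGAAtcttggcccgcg
AT4G37630: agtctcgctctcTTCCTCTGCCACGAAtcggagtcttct
The last of these is not a match. In AT4G37630 the cysteine and glutamate codons are in place, and the first codon of the capitals does not encode leucine. AT5G10440 (chr5:3280487-3282553) and AT4G03270 (chr4:1431844-1433861) held neither form. The 3 CYCD3 stretches run in parallel upstream of the motif, and downstream of it AT4G34160 departs from the others. The stretches of AT2G22490 and AT5G02110 begin at the start codon itself. The stretches lie at chr1:26440066-26440104 (AT1G70210, plus strand), chr2:9555835-9555873 (AT2G22490, minus), chr4:16357954-16357992 (AT4G34160, plus), chr5:26836361-26836399 (AT5G67260, plus), chr3:18566586-18566624 (AT3G50070, minus), chr5:26143697-26143735 (AT5G65420, minus), chr5:417087-417122 (AT5G02110, plus) and chr4:17679515-17679553 (AT4G37630, plus). A match is a description of the sequence and says nothing of binding in these root tips.

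Over their whole coding length the members were not alike. AT5G65420 and AT5G10440 were the closest pair, with 72.0% identical bases over the aligned columns, followed by AT5G67260 and AT3G50070 with 67.6% and AT4G34160 and AT3G50070 with 58.1%. The most distant pair was AT5G65420 and AT5G02110 with 41.5%. The longest run of identical coding bases was 37 in the CYCD4 pair and 24 between AT5G67260 and AT3G50070, so a longer read differs between the paralogues in at least 1 coding base. The read length is not given in the sources used here.

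**Figure D1:**
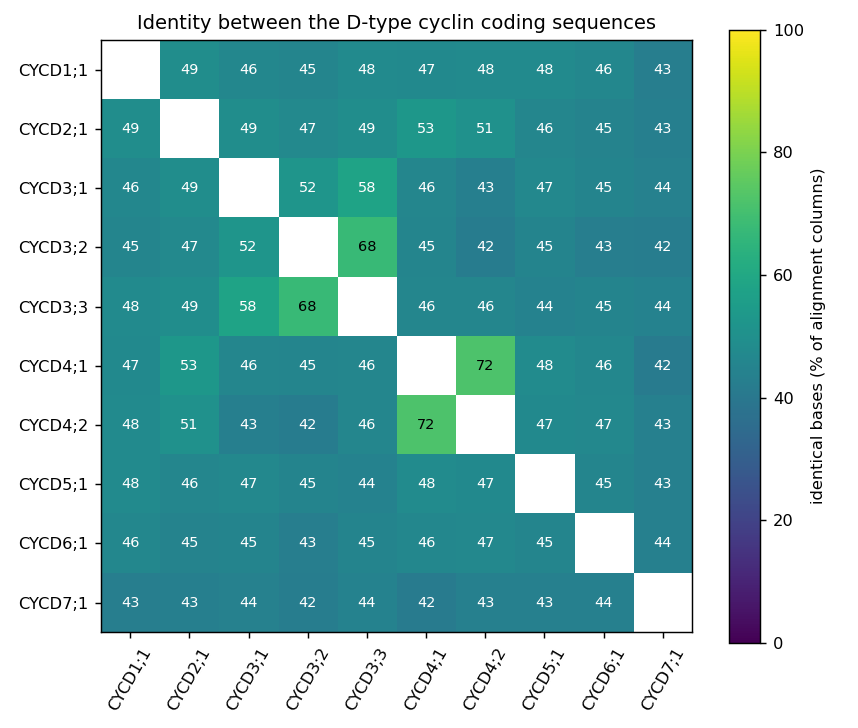
Identity of the coding sequences of the 10 D-type cyclins in percent of the columns of a global alignment, 1 cell per pair, with the colour scale from 0 to 100%. The CYCD4 pair (72.0%) and the AT5G67260 and AT3G50070 pair (67.6%) stand out from the other pairs.

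The libraries held 19394256 to 34899796 reads assigned to genes. The AGO10 transcript, measured as a check of the genotype labels, stood at 883 ± 174 normalized counts in Col-0 mock and 848 ± 250 in Col-0 BAP, against 167 ± 25.6 in ago10-1 mock and 158 ± 23.9 in ago10-1 BAP (SD, n = 3 each). The root tip markers PLT1 and PLT2, which encode PLETHORA factors of the stem cell niche, and SMB, a root cap factor, were present in all libraries, with sums between 854 and 1665 normalized counts. The 4 libraries numbered replicate 1, 1 in each group, stood apart from the other 8 on the first principal component of all genes, which held 53.6% of the variance. All 4 lay on its positive side, at 18.4 to 91.0, and the others lay between -68.6 and 1.78. A pair of Col-0 mock libraries share one replicate heading and are called library A and library B. No source used here says what the replicate numbers stand for.

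AT2G22490 (CYCD2;1) was the most abundant D-type cyclin of the root tip. Levels of different genes were compared per length, as TPM, the normalized count per exon length scaled to a fixed total per library. In Col-0 mock, AT2G22490, a cyclin that responds to sucrose and acts in lateral root formation, stood at 42.6 ± 1.93 TPM (SD, n = 3 here and in the following values). AT5G67260 (CYCD3;2) followed with 31.9 ± 4.21 TPM and AT3G50070 (CYCD3;3) with 23.2 ± 4.70 TPM. Of the family total, which was 111 to 151 TPM per library, AT2G22490 made up 26.3 to 32.4%, AT5G67260 18.2 to 24.7% and AT3G50070 14.3 to 20.01%. In whole tips, fewer cells of a type and less RNA per cell cannot be told apart.

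A middle group held AT4G37630 with 11.5 ± 2.37 TPM, AT4G34160 (CYCD3;1) with 9.98 ± 1.63 TPM and AT5G65420 (CYCD4;1) with 9.94 ± 1.52 TPM. AT4G37630 is linked to endoreduplication in leaves, and AT5G65420 acts in the pericycle before lateral root initiation. AT1G70210, known from the start of cell division during germination, stood at 5.46 ± 3.58 TPM. AT5G10440, which acts in stomatal divisions of the hypocotyl, stood at 4.26 ± 0.841 TPM.

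AT4G03270 stood at 0.609 ± 0.304 TPM and AT5G02110 at 0. In the order of these levels, the libraries of neighbouring genes did not overlap between AT2G22490 and AT5G67260, between AT3G50070 and AT4G37630, between AT5G10440 and AT4G03270 and between AT4G03270 and AT5G02110. The other neighbours did not differ beyond their spread over the 3 libraries.

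AT5G02110, whose known role is in the guard mother cell of the stomatal lineage, had 0 reads in each of the 12 libraries. A count of 0 allows up to 3 reads, or 0.0860 to 0.155 CPM (reads scaled to a fixed total) depending on the library. This limit takes each read as an independent count. The reads of AT2G22490, AT4G34160 and AT5G65420 were even in all 12 libraries. If both reads of a pair were counted, the limit is too low, which was not tested. Among the markers of that lineage, SPCH and MUTE also stood at 0 in every library, FAMA reached at most 3.04 normalized counts, and TMM ranged from 2.25 to 38.3.

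**Figure D2:**
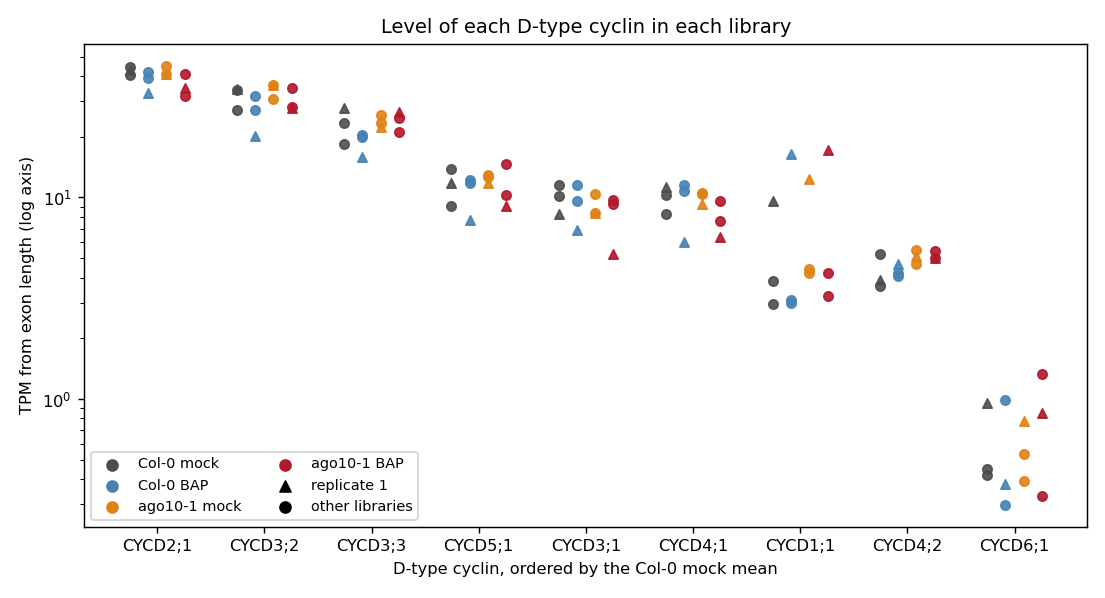
Level of each D-type cyclin in each library, in TPM from the exon length on a log axis, for 9 members ordered by their mean in Col-0 mock. Colours give the group and triangles the replicate 1 libraries. AT5G02110, at 0 in all 12 libraries, cannot be drawn on this axis, and the AT1G70210 triangles lie above the AT1G70210 circles in every group.

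After 2 h of BAP, no D-type cyclin was called in either genotype. The question was whether the cytokinin pulse moved the cyclins that couple hormones to division, and whether it did so more in ago10-1. A gene was called at an unadjusted p under 0.01 from limma, the threshold of the study. Of the 9 tested members 0 were called in Col-0, where 0.151% of all 19206 tested genes were called, and 0 were called in ago10-1, where the share was 0.568%. In the fit over both genotypes 0 members were called beside 1.48% of all genes. No member had an unadjusted p under 0.05 in these 3 limma fits, and edgeR and DESeq2 on the recovered reads likewise gave 0 members under 0.05.

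AT4G34160 (CYCD3;1), the member best known for its response to cytokinin, had 225, 332 and 293 normalized counts in Col-0 mock (replicate 1, library A and library B) and 203, 281 and 334 in Col-0 BAP (replicates 1 to 3). In ago10-1 it had 230.0, 243 and 295 in mock and 153, 263 and 287 after BAP (replicates 1 to 3). The gene shares 40 bases with AT4G34150 on the same strand, which stood at 701 to 1235 normalized counts. The groups overlapped in both genotypes, and the low value of each group was its replicate 1 library. The log2 fold change was -0.07 in Col-0 (95% interval -0.66 to 0.53, limma) and -0.17 in ago10-1 (-0.78 to 0.44). Over both genotypes it was -0.12 (-0.51 to 0.27), an interval that reaches from 0.701-fold to 1.21-fold. Without the replicate 1 libraries the value was 0.037 in ago10-1 and 0.00468 over both genotypes. The sign thus changed, to a value well within the standard error of 0.18 of the fit over both genotypes with all libraries.

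AT2G22490 came closest to the threshold for BAP over both genotypes. Its counts were 1089, 1089 and 1183 in Col-0 mock, 909, 1072 and 1130 in Col-0 BAP, 1050, 1221 and 1079 in ago10-1 mock, and 948, 1078 and 871 in ago10-1 BAP, in the order of replicates used above. Means were lower with BAP in both genotypes and the groups overlapped. The log2 fold change over both genotypes was -0.16 (95% interval -0.34 to 0.01, adjusted p = 0.789 from limma). With replicate 1 against the other libraries as a block it was -0.16 (-0.32 to -0.01). The unadjusted p was then 0.0407 and the adjusted p 0.396 (limma), again short of the threshold.

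AT5G67260 and AT5G65420 gave log2 values of similar size over both genotypes, -0.19 (95% interval -0.44 to 0.05) and -0.20 (-0.56 to 0.16). The AT5G65420 value turned to 0.0090 without the replicate 1 libraries, and in Col-0 alone it turned from -0.07 to 0.29. The AT5G67260 libraries ran from 537 to 946 normalized counts. The AT5G65420 counts in ago10-1 were 274, 332 and 315 in mock and 200.0, 294 and 243 after BAP, with 1 BAP library inside the mock range. Its log2 fold change there was -0.33 (-0.76 to 0.10), and blocking by replicate number gave -0.33 (-0.66 to -0.01, unadjusted p = 0.0455 and adjusted p = 0.327 from limma). This block raised the number of genes called for BAP in ago10-1 from 109 to 979, none of them a D-type cyclin. In the fit over both genotypes, replicate 1 against the rest as a block raised it from 285 to 646, again with no D-type cyclin.

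AT3G50070, AT4G37630 and AT5G10440 differed between BAP and mock by -0.10, -0.11 and 0.07 on the log2 scale over both genotypes, each with an interval that includes 0. The AT4G37630 libraries ran from 227 to 411 normalized counts. Without the replicate 1 libraries AT4G37630 turned to 0.035 and AT5G10440 to -0.00206. For 7 of the 9 members the interval of the BAP difference lay inside a 2-fold change in each genotype and in the fit over both. The exceptions were AT1G70210 and AT4G03270. With a replicate block the AT1G70210 interval also lay inside a 2-fold change. It was -0.43 to 0.84 in Col-0 and -0.22 to 0.47 over both genotypes, with replicate 1 against the others as the block. In ago10-1, blocked by replicate number, it was -0.41 to 0.49. The AT4G03270 interval still reached past 2-fold in each of these fits. Of the 9 members, 0 had non-overlapping groups in Col-0 beside 5.25% of all genes, and 0 in ago10-1 beside 9.20%.

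The response to BAP was not shown to differ between the genotypes for any member. The interaction called 0 members and 0.0208% of all genes. Its values ranged from -0.27 (AT5G65420, 95% interval -1.02 to 0.49) to 0.58 (AT4G03270, -1.29 to 2.45) on the log2 scale, and the value nearest to the threshold was that of AT3G50070 (0.30, -0.20 to 0.79). That value rested on the replicate 1 libraries, where BAP minus mock was -0.69 in Col-0 and 0.33 in ago10-1, and without them it turned to -0.067. By limma, edgeR and DESeq2, 0 members had an interaction p under 0.05. The BAP and genotype comparisons share libraries, so they are not independent of each other.

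**Figure D3:**
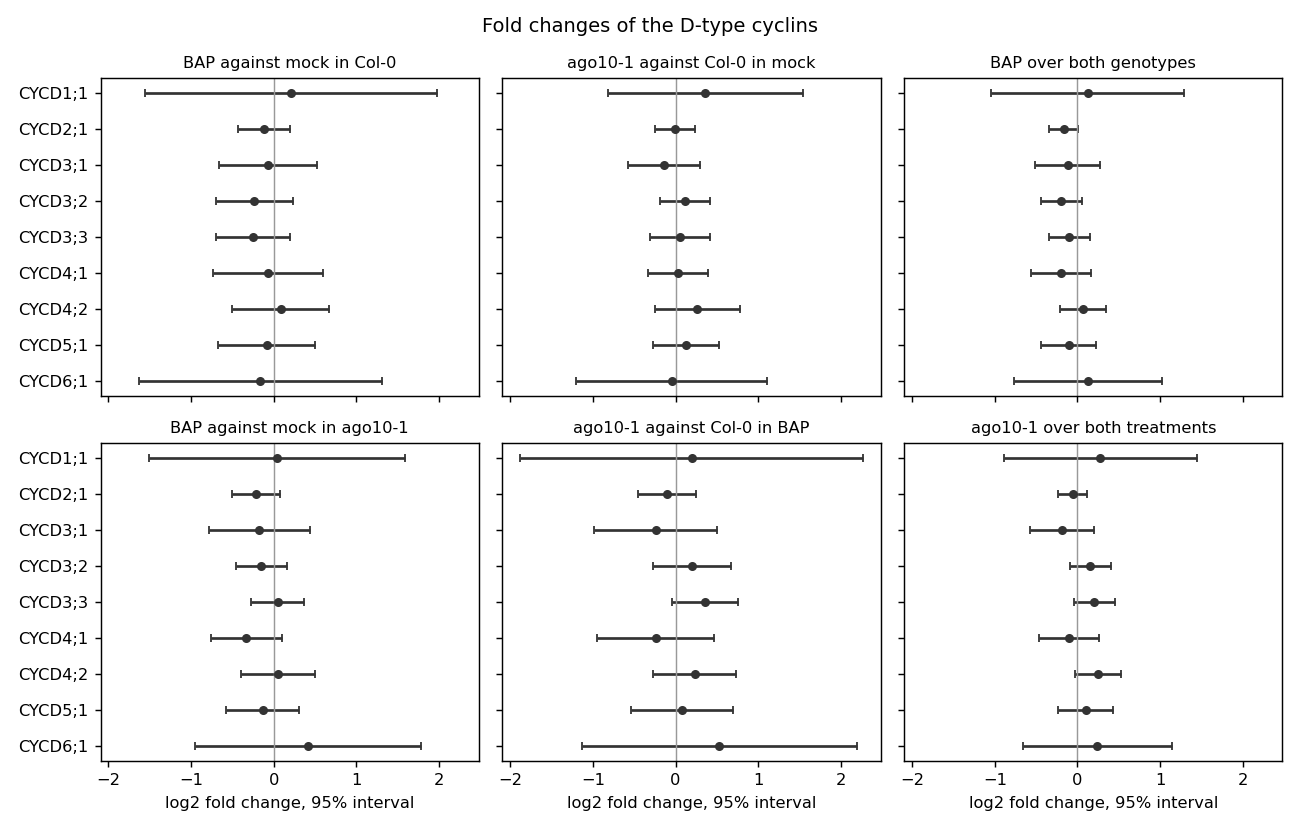
Log2 fold change of the 9 tested D-type cyclins with its 95% interval from limma, 1 panel per comparison, with 0 as the grey line. Every interval includes 0, and those of AT1G70210 and AT4G03270 are the wide ones.

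Between the genotypes, no D-type cyclin was called either. In mock 0 of 9 members and 0.437% of all genes were called, after BAP 0 of 9 and 0.130%, and over both treatments 0 of 9 and 0.802%. By the main limma fits, edgeR and DESeq2, 0 members had an unadjusted p under 0.05 in these comparisons. With all libraries in 1 limma fit, AT3G50070 after BAP had an unadjusted p of 0.0475, again short of the threshold. In mock 0 members had non-overlapping groups, beside 6.96% of all genes. After BAP 2 of 9 did, beside 3.59% of all genes, and these were AT3G50070 and AT5G10440, both higher in ago10-1.

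AT3G50070 (CYCD3;3), the close paralogue of AT5G67260, had 360.0, 459 and 443 normalized counts in Col-0 BAP and 596, 540.0 and 476 in ago10-1 BAP. Every ago10-1 library lay above every Col-0 library, and the low Col-0 value and the high ago10-1 value were both replicate 1 libraries. The log2 difference was 0.35 (95% interval -0.04 to 0.75 from limma). It was 0.25 without replicate 1 of Col-0 BAP and 0.17 without replicate 1 of both groups. In mock the counts were 581, 409 and 515 in Col-0 and 472, 523 and 558 in ago10-1, which overlapped, with a log2 difference of 0.06 (-0.30 to 0.42).

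AT5G10440 (CYCD4;2) had 101.3, 88.2 and 89.2 normalized counts in Col-0 BAP and 107, 104 and 116 in ago10-1 BAP. The gap between the highest Col-0 and the lowest ago10-1 library was small beside the spread within ago10-1, and the log2 difference was 0.23 (95% interval -0.27 to 0.73). In mock it had 77.98, 77.4 and 109.9 in Col-0 and 103, 117 and 96.5 in ago10-1. Over both treatments AT5G10440 differed by 0.25 (-0.03 to 0.53) and AT3G50070 by 0.21 (-0.04 to 0.46), both short of the threshold.

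The other members lay closer to 0 or had wide intervals between the genotypes. Over both treatments AT2G22490 differed by -0.05 (95% interval -0.23 to 0.12, or 0.853-fold to 1.09-fold), the narrowest interval of the family. Its intervals in each treatment alone were wider, 0.843-fold to 1.18-fold in mock and 0.730-fold to 1.19-fold after BAP. AT5G67260 differed by 0.16 (-0.09 to 0.40), AT4G37630 by 0.10 (-0.23 to 0.43), AT5G65420 by -0.11 (-0.47 to 0.26) and AT4G34160 by -0.19 (-0.58 to 0.21). AT1G70210 differed by 0.28 with a wide interval (-0.89 to 1.44), and by 0.28 (-0.07 to 0.62) with replicate 1 against the others as a block.

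AT4G03270 (CYCD6;1) was too low for a firm statement. It had 19, 12 and 15 reads in Col-0 mock, 7, 21 and 7 in Col-0 BAP, 15, 17 and 11 in ago10-1 mock and 19, 31 and 11 in ago10-1 BAP. In normalized counts these were 22.5, 10.44 and 11.1, then 9.58, 25.0 and 7.44, then 18.4, 13.4 and 9.48, and 21.4, 32.3 and 8.36. The highest library was ago10-1 BAP replicate 2, replicate 3 of the same group was the second lowest of all 12, and the groups overlapped throughout. For ago10-1 over both treatments the log2 difference was 0.24 (95% interval -0.66 to 1.14) and for BAP over both genotypes it was 0.13 (-0.77 to 1.03). Part of the gene, 847 of its 2018 bases, is overlapped on the opposite strand by AT4G03260, which stood at 1512 to 2810 normalized counts. Whether reads were counted by strand is not given in the sources used here, and without strand the reads of both genes in the shared bases cannot be told apart. SHR and SCR, the regulators upstream of AT4G03270, were well expressed, with SHR at 1076 ± 148 and SCR at 1409.5 ± 49.1 normalized counts in Col-0 mock (SD, n = 3 each).

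AT1G70210 (CYCD1;1) varied more between replicates than any comparison moved it. It had 349, 150 and 114 normalized counts in Col-0 mock, 647, 122 and 116 in Col-0 BAP, 456, 165 and 167 in ago10-1 mock, and 666, 161 and 128 in ago10-1 BAP, with replicate 1 first in each group. The 4 replicate 1 libraries ran from 349 to 666 and the other 8 from 114 to 167, with no overlap. Averaged over the groups, replicate 1 was 1.88 higher on the log2 scale, and 397 of the 19206 tested genes had a larger such value. For scale, 7.95% of all tested genes had all 4 replicate 1 libraries above the other 8.

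Within replicate 1 the BAP library exceeded the mock library by 0.89 (Col-0) and 0.55 (ago10-1) on the log2 scale, 1 library against 1. Without the replicate 1 libraries the BAP difference over both genotypes was -0.17, against 0.12 with them (95% interval -1.04 to 1.29, limma). The direction of AT1G70210 after BAP thus turned with these 4 libraries, and neither value was called. For ago10-1 against Col-0 in mock, AT1G70210 differed by 0.36 (-0.82 to 1.54), and by 0.36 (-0.01 to 0.73) with replicate 1 against the others as a block.

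AT4G34160 went the other way. Its 4 replicate 1 libraries, 153 to 230.0 normalized counts, all lay below the other 8, at 243 to 334, by 0.53 on average on the log2 scale. Such a separation downwards was found in 5.70% of all tested genes. AT5G65420 and AT4G37630 were lowest in replicate 1 in 3 of the 4 groups, and their ranges overlapped those of the other libraries. AT2G22490, AT5G67260, AT3G50070, AT5G10440 and AT4G03270 showed no separation.

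**Figure D4:**
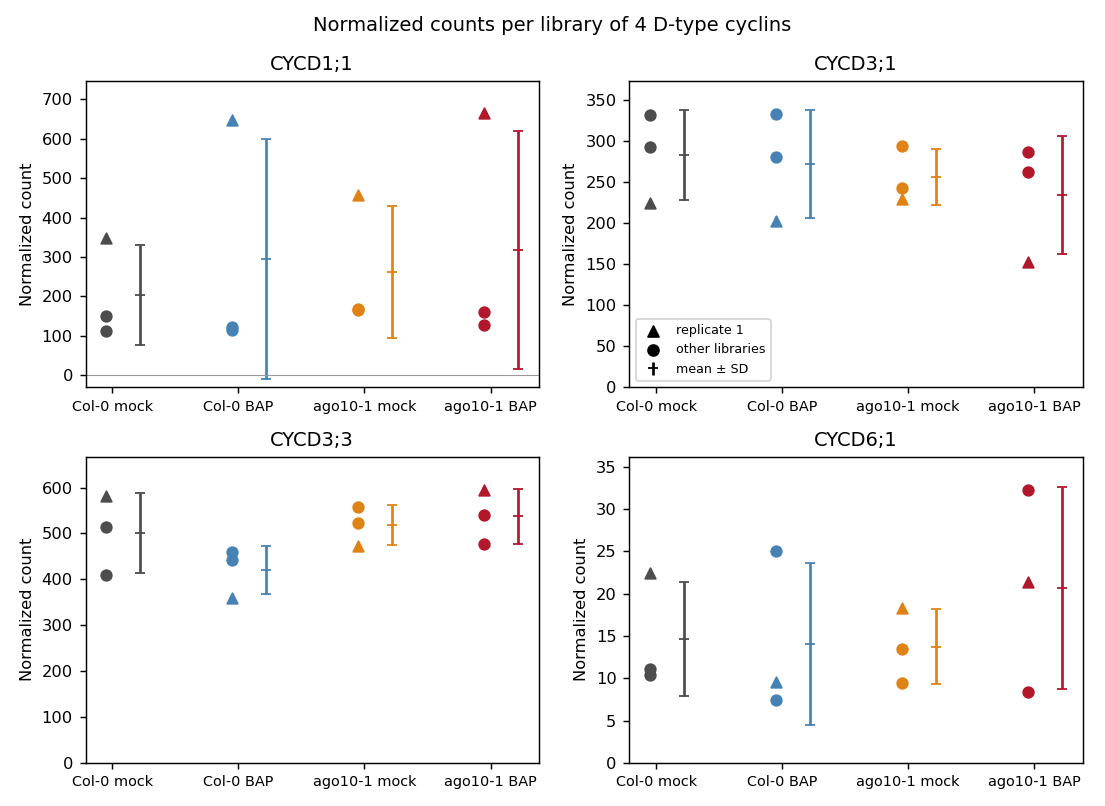
Normalized counts per library of AT1G70210, AT4G34160, AT3G50070 and AT4G03270 in the 4 groups, with replicate 1 as a triangle, the other libraries as circles, and the mean ± SD of the 3 libraries beside them. The lower end of 1 AT1G70210 bar falls below 0 because a single library carries the SD. Replicate 1 is the highest AT1G70210 library (349 to 666) and the lowest AT4G34160 library (153 to 230.0) of every group.

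Other genes moved with the replicate 1 libraries. All 23 listed S phase genes had a lower mean in replicate 1 (median -0.38 on the log2 scale). So did the 3 root tip markers (median -0.43) and all 8 listed G1 kinases and activators (median -0.10), while the 12 mitotic markers were split 6 to 6 (median -0.00). The median over all tested genes was -0.02. Lower without overlap were 4 of the S phase genes, beside 5.70% of all tested genes. The same held for 1 of the G1 kinases and activators, 1 of the mitotic markers and 0 of the root tip markers. The summed root tip markers ran from 854 to 1362 normalized counts in replicate 1 and from 1241 to 1665 in the other libraries. Of the 5 markers of green shoot tissue, 3 were tested and all 3 were higher in replicate 1 (median 1.13), with sums of 73.4 to 1053 in replicate 1 and 44.6 to 306 elsewhere. Of the 5 root hair markers 2 were higher and 3 lower in replicate 1 (median -0.06), 1 of them lower without overlap. Their sums ran from 14016 to 33493 in replicate 1 and from 13838 to 34257 in the others. The part of these differences in the AT1G70210 and AT4G34160 values was not tested.

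The opposite patterns of AT1G70210 and AT4G34160 also gave the strongest link within the family, a Pearson r of -0.89 over the 12 libraries on the log2 scale. AT5G67260 and AT4G37630 followed with 0.80, and AT2G22490 and AT5G65420 with 0.71, while AT5G67260 and AT3G50070 reached 0.64 and the CYCD4 pair -0.50. These values describe 12 libraries that share replicate groups and depth, and no p is given for them.

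Among genes outside the family with a mean of at least 50, the profiles most like AT1G70210 were AT1G30720 (r = 0.99), CYP71B23, a cytochrome P450 gene (0.98), and AT3G05160 (0.98). Nearest to AT2G22490 were HSD2 (0.97), PFK6, which encodes a phosphofructokinase (0.96), and AT4G28440 (0.96). Nearest to AT4G34160 were AT1G56345 (0.98), scpl40 (0.95) and GER1 (0.94).

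For AT5G67260 the nearest were AT5G27750 (0.97), ABCC13 (0.96) and AT5G50150 (0.96), and for AT3G50070 they were AT1G63300 (0.87), AT4G39550 (0.86) and the auxin carrier gene LAX2 (0.86). AT5G65420 was closest to ABA2, a gene of abscisic acid synthesis (0.96), CBL10 (0.93) and AT5G08400 (0.93). AT5G10440 was closest to ETFBETA (0.82), AT2G28590 (0.79) and AT1G17410 (0.77), and AT4G37630 to AT3G30300 (0.96), AT1G51310 (0.95) and INDH (0.94). AT4G03270 was closest to MPS1 (0.84), AT3G27420 (0.82) and AT3G26380 (0.81). These r values were picked as the highest over all such genes and were taken over the same 12 libraries.

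The genes around the D-type cyclins in the G1 to S pathway were read from 7 lists with 82 genes. These lists also hold upstream regulators and 12 mitotic markers. Of the 82 genes 79 were tested, and 1 of the 79 was called in any of the 7 comparisons. In these comparisons 0.0208 to 1.48% of all tested genes were called. That gene was SMR10, a member of the SIM and SMR family of kinase inhibitors. It had 56.7, 48.7 and 39.8 normalized counts in Col-0 mock, 73.9, 47.7 and 38.2 in Col-0 BAP, 80.8, 67.9 and 74.1 in ago10-1 mock, and 94.4, 77.1 and 80.6 in ago10-1 BAP. The ago10-1 libraries, except replicate 2 of mock, lay above all 6 Col-0 libraries. Over both treatments SMR10 rose in ago10-1 by 0.66 on the log2 scale (standard error 0.18, limma), which passed the unadjusted threshold with an adjusted p of 0.912 over all genes. Replicate 1 was the highest SMR10 library of every group, and without the replicate 1 libraries the difference was 0.77 and again passed.

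Of the 8 G1 kinases and their activators 0 were called. All log2 values in this and the next paragraphs are from the limma fits over 12 libraries, errors after ± are standard errors, and the genes named are those of each list with the smallest p for BAP and for ago10-1. The median over all tested genes was 0.01 in both fits. CDKA;1, the kinase partner of the D-type cyclins, was at -0.10 ± 0.069 after BAP and AT4G28980, which encodes the CDK-activating kinase of the F type, at -0.09 ± 0.064. The kinase docking factors CKS1 and CKS2 were at 0.23 ± 0.085 and 0.11 ± 0.071 in ago10-1.

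Of the 7 KRP inhibitors 0 were called, with a median of 0.16 after BAP and 5 above 0. KRP2, known to bind AT2G22490, was at 0.32 ± 0.14 after BAP and KRP3 at -0.28 ± 0.19, while KRP4 and KRP5 were at 0.18 ± 0.13 and 0.21 ± 0.15 in ago10-1. Of the 12 SIM and SMR genes tested, 0 were called after BAP (median 0.10), with SMR2 at 0.61 ± 0.27 and SMR4 at 0.37 ± 0.20. In ago10-1, 1 of the 12 was called (median 0.14), beside 0.802% of all genes, and SMR8 was at 0.35 ± 0.12.

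Of the 9 RBR1, E2F and DP genes 0 were called and 1 was above 0 after BAP (median -0.12). DEL3, an atypical E2F, was at -0.22 ± 0.098 after BAP and E2FC at -0.12 ± 0.10, while DEL1 and RBR1 were at -0.15 ± 0.15 and -0.08 ± 0.087 in ago10-1. Of the 23 S phase genes 0 were called, with 2 above 0 after BAP (median -0.14) and 2 above 0 in ago10-1 (median -0.11). After BAP, AT1G47210, an A-type cyclin gene, was at -0.23 ± 0.12 and ORC1A, of the origin recognition complex, at -0.38 ± 0.20. In ago10-1 the licensing factor CDT1B was at -0.27 ± 0.15 and ETG1, a replication factor, at -0.17 ± 0.12.

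Of the 12 mitotic markers 0 were called and 0 were above 0 after BAP (median -0.12). KNOLLE, the syntaxin of the cell plate, was at -0.32 ± 0.12 and the B-type cyclin gene AT5G06150 at -0.24 ± 0.11. In ago10-1 the B-type cyclin genes AT2G26760 and AT4G37490 were at -0.14 ± 0.10 and -0.18 ± 0.17. Of the 8 upstream regulators tested 0 were called. WOX5, the quiescent centre factor, was at 0.92 ± 0.43 after BAP on 11.9 to 31.9 normalized counts in the group means. Averaged over the groups without a fit, WOX5 was 1.21 higher in replicate 1 on the log2 scale. Its normalized counts were 16.5 to 54.8 there and 8.62 to 27.4 in the other libraries. The auxin response factor MP was at -0.16 ± 0.15 after BAP, while SHR and SCR were at 0.22 ± 0.11 and 0.06 ± 0.061 in ago10-1.

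Markers of other tissues were read in the same fits. After BAP 4 of the 5 root hair markers were above 0 (median 0.38), as were all 3 green shoot markers tested (median 1.43), and 0 of them were called. The summed root hair markers ran from 15598 to 28695 normalized counts in Col-0 mock, 16320 to 33493 in Col-0 BAP, 13838 to 20687 in ago10-1 mock and 17888 to 34257 in ago10-1 BAP. The summed green shoot markers ran from 57.5 to 189.6, 44.6 to 1053, 56.9 to 154 and 123.02 to 306 in the same order. Their part in the values of the cyclins and of the S phase and mitotic genes after BAP was not tested. The D-type cyclins had a median of -0.11 after BAP, with 3 of 9 above 0, and of 0.16 in ago10-1, with 6 of 9 above 0. These medians are descriptions of lists whose genes are not independent of each other.

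**Figure D5:**
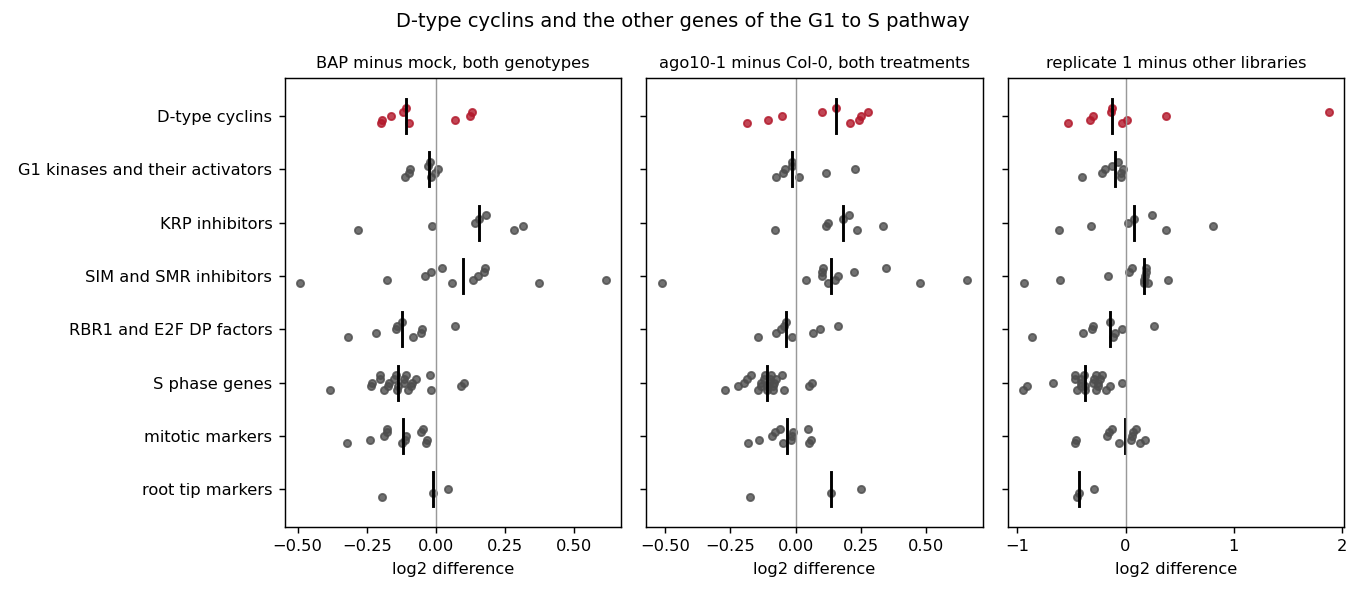
Log2 differences of the D-type cyclins (red) and of the other G1 to S, mitotic and root tip genes (grey), 1 point per tested gene, with the list median as a black line. The left panel is BAP minus mock over both genotypes, the middle panel ago10-1 minus Col-0 over both treatments, and the right panel replicate 1 minus the other libraries, on its own scale. The D-type cyclins lie between -0.20 and 0.13 on the left, and AT1G70210 stands alone at 1.88 on the right among the lists drawn. The upstream regulators and the green shoot, root hair and stomatal markers are not drawn.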

How the data were processed

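Per the labels, total RNA of root tips was taken from 3 samples per group, labelled as biological replicates, and p-values measure the spread between them. Per the methods and the submitters' processing notes, the authors aligned reads with STAR to TAIR10, took counts per gene (featureCounts) and scaled them by DESeq2, versions not given in the sources used here. The deposited values are signal: counts divided by library size factors. Read length and strandedness are not given in the sources used here. Dividing by each library's smallest step gave whole reads for 100% of values (tolerance 1e-06 reads). No column was left out. Depth was 19394256 to 34899796 reads per library, the floors of 3 reads cover counting error only, and the 95% intervals come from the spread between libraries (limma).

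Genes averaging 10 or more normalized counts were tested with limma 3.58.1 (R 4.3.3, trend) on log2(normalized count + 1), so fold changes of low genes are understated. Each of the 4 pairwise comparisons was fitted on its 6 libraries, and the effects over both genotypes, over both treatments and of the interaction on 12. Calls used an unadjusted p under 0.01, with Benjamini-Hochberg adjusted p over all genes beside it. Alternatives were edgeR 4.0.16 and DESeq2 1.42.0 on the recovered reads, TMM scaling, pseudocounts 0.5 and 5, a filter of 1 or none, leaving out each library, all libraries in 1 fit, a replicate block, and, chosen after seeing the data, no replicate 1 libraries. The limma fit was tested on simulated data.

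The main fits used no block. In the alternative with a block, replicate numbers paired the samples where both groups carried them. Deviations from the group means correlated between same-numbered libraries with r = 0.67, 0.41 and 0.43 (ago10-1 mock and BAP) and r = 0.78, 0.45 and 0.29 (Col-0 BAP and ago10-1 BAP), each over 0.1, which rests on the data and not on a stated batch. Some differently numbered libraries also correlated, with r up to 0.66 (Col-0 BAP 3 and ago10-1 BAP 2) and 0.32 (ago10-1 mock 3 and ago10-1 BAP 2), so not every library was closest to its own number. Deviations from the mean of 3 libraries cancel out, so a replicate 1 library far from that mean pushes the other deviations the same way. This tends to make replicates 2 and 3 correlate between groups whatever their numbers, so an r over 0.1 does not show pairing by number. A pair of Col-0 mock columns share a heading, so comparisons with Col-0 mock used replicate 1 against the others as the block.

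TPM used RefSeq exon lengths, and sequences came from RefSeq TAIR10.1 (Biopython 1.88), where 32548 of 32833 identifiers matched. Members and lists were chosen with earlier results of these data known. Named were the 10 cyclins, AGO10, per pathway list the genes called and the 2 with the smallest p in the 12-library fits and the 3 nearest profiles per member, and beside this rule the markers of the root tip and stomatal lists as checks of tissue.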

Additional observations from a re-analysis of the deposited data

How the results depend on the processing

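The 63 log2 values of the members (9 genes in 7 comparisons) gave 1098 values under the alternatives, and 0 of them passed the threshold. The smallest p was 0.0271 (AT5G10440, ago10-1 over both treatments, without Col-0 mock library B, limma) and the smallest adjusted p was 0.327. Pseudocounts, filters, edgeR, DESeq2 and fits with all libraries changed 0 directions, and TMM scaling moved each level in Col-0 mock by less than its SD. The replicate block changed no call of a member. Its values are the same log2 differences with other errors, such as -0.33 for AT5G65420 after BAP in ago10-1 and -0.16 for AT2G22490 over both genotypes. SMR10 stayed called in ago10-1 over both treatments under every alternative run.

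Without the replicate 1 libraries 19 directions turned, some of them only to values as small as -0.00206, and the cause was not tested. For BAP in Col-0, AT1G70210 was then at -0.13, AT5G65420 at 0.29, AT5G10440 at -0.056, AT4G37630 at 0.12 and AT4G03270 at 0.34. For BAP in ago10-1, AT1G70210 was at -0.21, AT4G34160 at 0.037 and AT3G50070 at -0.092. For ago10-1 in mock, AT2G22490 was at 0.016 and AT4G03270 at 0.066. For BAP over both genotypes, AT1G70210 was at -0.17, AT4G34160 at 0.00468, AT5G65420 at 0.0090, AT5G10440 at -0.00206 and AT4G37630 at 0.035. For the interaction, AT4G34160 was at 0.065, AT5G67260 at -0.055, AT3G50070 at -0.067 and AT5G10440 at 0.11.

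Leaving out 1 library turned the direction of 28 member values, given here by their lowest and highest value. For BAP in Col-0 these were AT1G70210 (-0.61 to 0.68), AT4G34160 (-0.23 to 0.13), AT5G65420 (-0.24 to 0.22), AT4G37630 (-0.23 to 0.12) and AT4G03270 (-0.65 to 0.17). For BAP in ago10-1 they were AT1G70210 (-0.70 to 0.52), AT4G34160 (-0.34 to 0.11), AT3G50070 (-0.027 to 0.13), AT5G10440 (-0.0081 to 0.13) and AT4G37630 (-0.32 to 0.0090). For ago10-1 in mock they were AT1G70210 (-0.12 to 0.83), AT2G22490 (-0.073 to 0.036), AT3G50070 (-0.082 to 0.17), AT5G65420 (-0.088 to 0.11), AT4G37630 (-0.018 to 0.28) and AT4G03270 (-0.27 to 0.28). For ago10-1 in BAP they were AT1G70210 (-0.54 to 1.01), AT4G34160 (-0.44 to 0.042) and AT4G37630 (-0.13 to 0.22). For BAP over both genotypes they were AT1G70210 (-0.25 to 0.35), AT4G34160 (-0.20 to 0.011) and AT4G03270 (-0.081 to 0.33), and for ago10-1 over both treatments AT1G70210 (-0.041 to 0.65). For the interaction they were AT1G70210 (-0.90 to 0.65), AT4G34160 (-0.30 to 0.18), AT5G67260 (-0.087 to 0.23), AT5G10440 (-0.20 to 0.050) and AT4G37630 (-0.25 to 0.094).

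Counts of calls over all genes also moved with these choices. For BAP in Col-0, 29 genes were called by limma, 74 by DESeq2, 138 without the filter, 67 with the block and 9 to 82 with 1 library left out. For BAP in ago10-1 the counts were 109, 291, 234, 979 and 28 to 623. For ago10-1 in mock they were 84, 121, 181, 174 and 46 to 94, and in BAP 25, 51, 122, 52 and 6 to 138. Over both genotypes BAP gave 285, 553, 337, 646 and 164 to 495, and over both treatments ago10-1 gave 154, 227, 213, 365 and 96 to 336. The interaction gave 4, 13, 51, 12 and 4 to 39. A filter of 1 gave 55 genes for BAP in Col-0, 56 for ago10-1 in BAP and 23 for the interaction, and fits with all libraries gave 75 for BAP in Col-0, 67 for BAP in ago10-1 and 49 for ago10-1 in BAP. Replicate 1 against the rest as a block, added after seeing the data for these comparisons, gave 422 for BAP in ago10-1 and 85 for ago10-1 in BAP. Without the replicate 1 libraries the counts were 68 for BAP in Col-0, 125 for ago10-1 in BAP, 176 for BAP over both genotypes, 277 for ago10-1 over both treatments and 18 for the interaction. Depth limits AT4G03270, at 7 to 31 reads a library, and AT5G02110, at 0.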
